A study of Homo sapiens with 72 samples.

Results

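The collagen chain genes are the 44 genes whose symbol names a numbered collagen type and chain (COL1A1, COL4A2 and so on), chosen by that symbol among 61541 Ensembl genes listed in each of 11 comparison tables from work on G3BP1, which binds RNA. Symbols were carried by Ensembl identifier to the tables without a symbol column, and all 44 had the same symbol in a separate table of gene names. The 24 libraries used here form 11 groups, and the other 48 of the 72 libraries of the series are not analysed here. For the RNA immunoprecipitation (RIP), FlpIn 293 Trex cells, a human embryonic kidney line, stably carried FLAG-tagged G3BP1 under tetracycline control (1 ug/mL, 24 h), and 3 immunoprecipitated (IP) libraries were compared with 3 input libraries. All other libraries came from U2OS, a human osteosarcoma line, with 2 libraries per group in 2 experiments. The first experiment compared wild-type cells, cells with a G3BP1/2 knockout (both paralogs disrupted), and knockout cells 24 h after lipofection with a G3BP1 transgene, called the G3BP1 rescue. The second experiment held only G3BP1/2 knockout cells: untransfected, or 24 h after lipofection with a wild-type G3BP1 transgene (the wild-type rescue) or with a G3BP1 mutant that lacks NTF2 (the NTF2-deletion rescue), each without or with 200 uM sodium arsenite for 2 h. The untransfected groups carry no mock transfection, transfection was transient, the promoter of the transgenes is not given in the sources used here, and neither is whether the knockout line is 1 clone.

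Collagens are triple helices of 3 chains, made as long precursor chains on ribosomes at the endoplasmic reticulum, where prolines and lysines are hydroxylated, chains are selected and folded, and the trimer is exported, trimmed and cross-linked outside the cell. Fibril-forming types build tendon, bone and skin, type IV builds the sheet of basement membranes, type VI builds beaded filaments around cells, and the fibril-associated types sit on the surface of fibrils. G3BP1 is a core protein of stress granules, bodies of mRNA and protein that form in the cytoplasm when translation stops, and arsenite is a standard trigger of them.

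Libraries of the first experiment held 38.59 to 52.47 M reads on genes, and those of the second 10.79 to 27.76 M. G3BP1 itself took 0.0417% and 0.0408% of gene reads in wild-type cells, 0.0273% and 0.0281% in the knockout of the first experiment, and 0.0435% and 0.0437% in its G3BP1 rescue. In the second experiment the transgene stood far higher, at 4.02% and 3.83% of gene reads in the wild-type rescue and 5.32% and 5.16% in the NTF2-deletion rescue, against 0.0290% and 0.0292% in the knockout. Reads of the gene remained in knockout libraries. The disrupted stretch is not given in the sources used here, so these reads do not check the loss of the protein. Of the bone and mesenchymal markers, VIM had a base mean (the deposited mean of normalised reads over both groups of a table) of 72390 in the authors' deposited table of knockout against wild type, RUNX2 of 924, ALPL of 388 and SPP1 of 1188, while IBSP, SP7 and BGLAP had 0, 1.04 and 8.76. Within that list the log2 fold change of knockout over wild type was 3.96 for SPP1, 3.49 for ALPL, -1.38 for RUNX2 and -0.54 for VIM in the authors' deposited table. Of the epithelial markers KRT8 stood at 17756 there, KRT18 at 8605, EPCAM at 453 and CDH1 at 27.9. The log2 fold change was 0.18 for KRT8 and -0.43 for KRT18, and EPCAM and CDH1 were not called. Of the blood and endothelial markers CD3E was at 0, CD68 at 1.76, PECAM1 at 1.51 and CDH5 at 3.94, with PTPRC at 21.3 and VWF at 153. VWF differed between knockout and wild type by a log2 fold change of 3.70 and PTPRC by -2.34 in that table, and the part of other cell types or of a shift in bone markers in the collagen results was not tested.

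Of the 44 genes, 39 reached a base mean of at least 10, the level asked for here before a single gene is described, in at least 1 table. COL6A5, COL6A6, COL9A1, COL10A1 and COL23A1 stayed under it in every table. Among the 10 tables of U2OS cells, at least 1 held 36 of the genes at that level, all held 25 of them, and 17 had a base mean of 100 or more in all. COL1A2, the partner of COL1A1 in type I collagen, was nearly silent: its normalised reads (reads divided by the size factor of the library) in the first experiment were 29.4 and 20.7 in wild-type cells, 13.2 and 8.15 in knockout cells and 28.1 and 27.3 in the G3BP1 rescue. The reads of each U2OS library were recovered exactly from the deposited base means, and the 2 experiments were scaled separately, so levels are compared only within an experiment. As these are bulk libraries, fewer cells that express a gene and less RNA per cell cannot be told apart.

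In the RIP, collagen mRNAs were mostly lower in the G3BP1 precipitate than in the input. Of 26 collagen genes tested, 18 were called lower (adjusted p under 0.05) and 1 higher by the authors' DESeq2 test, where 37.9% of all 14779 genes tested were called lower and 37.1% higher, and 75.1% in either direction. The median log2 fold change of the 26 genes was -2.01, and that of all genes tested was 0.01. All 6 genes of the basement membrane type IV were called lower, with values in the authors' deposited table of -3.12 ± 0.18 (SE) for COL4A2, -3.02 ± 0.25 for COL4A4 and -2.79 ± 0.18 for COL4A1. COL7A1, whose product anchors the epidermis to the dermis, had the lowest deposited value, -3.94 ± 0.53 in the authors' deposited table (adjusted p = 4.73e-13). Its recovered reads were 3, 5 and 1 in the IP libraries and 65, 61 and 44 in the input libraries, so the groups did not overlap. COL12A1, a fibril-associated collagen, had 0, 0 and 3 reads in IP and 22, 25 and 34 in input. Deposited values are shrunk toward 0, and the ratio of mean normalised reads was lower for COL12A1 than for COL7A1, so the order of these genes depends on the shrinkage. COL27A1 and COL11A2, a pair of fibril-forming chains of cartilage, stood at -3.62 and -3.51 in the authors' deposited table.

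Some collagen mRNAs did not follow. COL9A3, a chain of the cartilage type IX, was the gene called higher, with 56, 37 and 30 reads in IP against 13, 10 and 7 in input and a log2 fold change of 1.92 ± 0.44 in the authors' deposited table (adjusted p = 3.35e-05). All 3 of its IP libraries were above all 3 inputs. COL5A1, which sets the diameter of type I fibrils, had a log2 fold change of -0.04 ± 0.17 in the authors' deposited table, while its partner COL5A2 stood at -2.48 ± 0.55, with 3, 3 and 16 reads in IP and 46, 68 and 43 in input. COL6A2 was called lower by less than its partner COL6A1 in the authors' deposited table, at -0.66 ± 0.18 against -1.78 ± 0.18. COL1A1 did follow, with 5, 9 and 17 reads in IP and 42, 36 and 46 in input. Its groups did not overlap, and the log2 ratio of mean normalised reads was -1.87. The transmembrane COL13A1 had 48, 38 and 30 reads in IP and 41, 22 and 29 in input, and the groups overlapped. The Wald statistics (fold change over its error) were also divided by their own robust spread over all genes, 7.07. Then 0 of the 26 genes were called and 3 had an unadjusted p under 0.05. The share of all genes called after this division is not given here. Before it 75.1% of all genes were called, so that spread can include differences between IP and input. The division therefore cannot decide whether the collagen calls hold, and they rest on the authors' unscaled test.

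**Figure D1:**
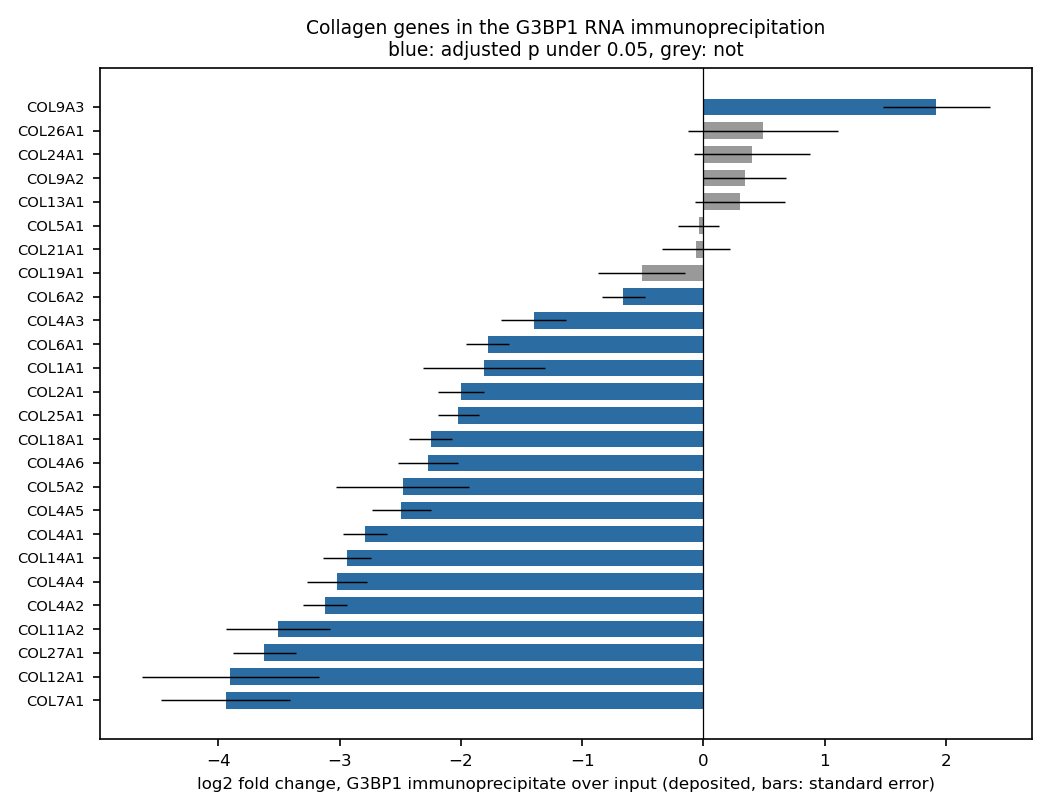
Log2 fold change of 26 collagen genes (rows) in the G3BP1 precipitate over the input, as deposited, with standard errors as bars and 3 libraries per group. Most genes lie left of 0, down to COL7A1 at -3.94, and COL9A3 at 1.92 is the blue bar on the right.

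Genes that modify, export, process or bind collagen, and other matrix genes, were read in the same comparison of IP with input, whose shares over all genes were 37.1% higher and 37.9% lower. Of 19 tested enzymes and chaperones of the endoplasmic reticulum 11 were called higher and 3 lower, led by TMEM38B, an ion channel of that organelle, at 1.88 and PPIB, a prolyl isomerase of procollagen, at 1.68 in the authors' deposited table. Of 11 genes of export from that organelle 7 were higher and 3 lower, among the lower ones SEC16A at -3.72 and MIA3, which packs procollagen into carriers, at -1.61 in the authors' deposited table. Of 21 other matrix glycoproteins 17 were lower and 3 higher, with a median of -2.75, and the laminin chain LAMA1 reached -4.18 in the authors' deposited table. Of 6 tested collagen receptors 4 were lower and 0 higher, with a median of -1.66. Of 11 tested genes of processing and cross-linking outside the cell 3 were higher and 3 lower. The difference between these lists was not tested.

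The comparison of knockout with wild-type cells asks what the loss of both G3BP paralogs goes along with. Collagen genes moved in both directions and by large amounts. In the authors' test 13 of 32 collagen genes were called higher in the knockout and 11 lower, together 75% of those tested, where 45.9% of all 20718 genes were called, 22.2% higher and 23.7% lower. Among the called collagen genes 19 changed by at least 1 on the log2 scale, 11 of them upward. The median over the 32 genes was 0.13, or -0.04 where the base mean was 100 or more, and the median of all genes tested was 0.01. The 2 libraries of each group lay apart from those of the other for 28 of the 32 collagen genes, and for 77.9% of all genes tested.

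**Figure D2:**
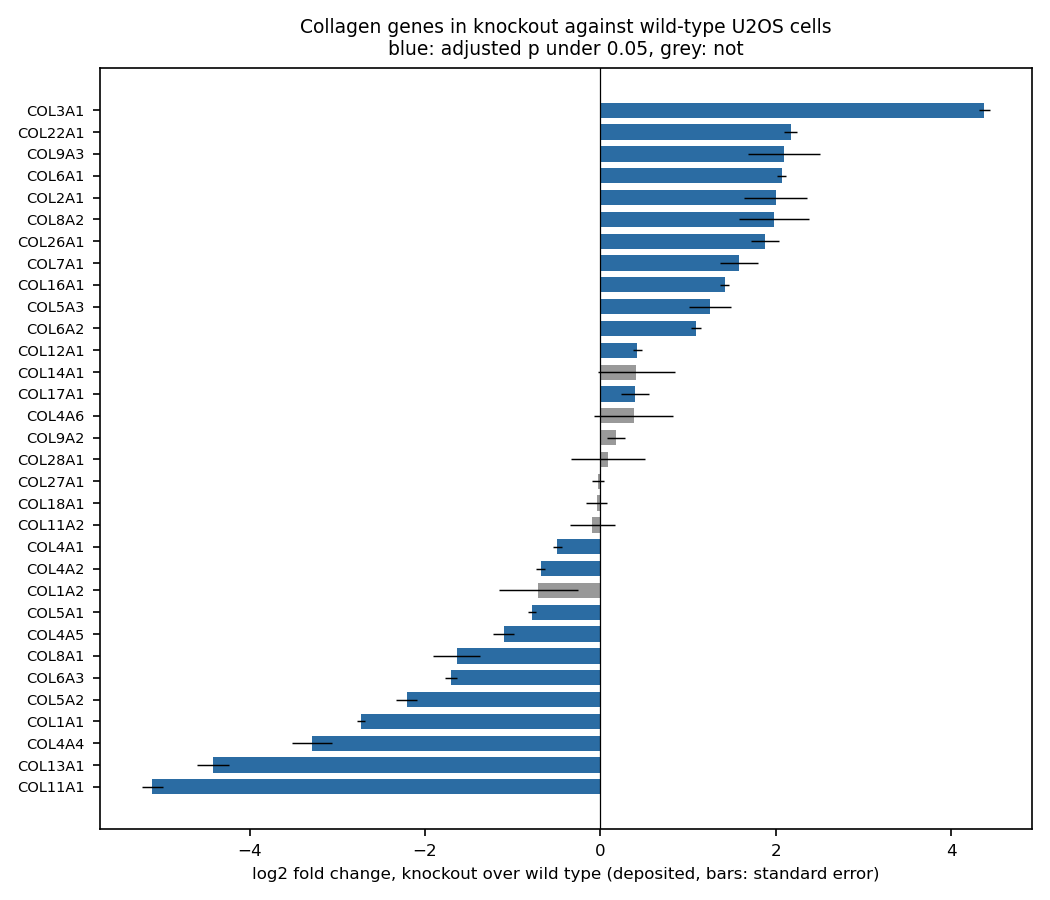
Log2 fold change of 32 collagen genes (rows) in knockout over wild-type U2OS cells, as deposited, with standard errors as bars and 2 libraries per group. Values run from -5.11 for COL11A1 to 4.38 for COL3A1, with blue bars on both sides of 0.

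Fibril-forming genes moved in opposite directions. COL1A1, the main chain of type I collagen of bone, had 160600 and 150285 normalised reads in wild-type cells, 23918 and 22925 in the knockout and 69674 and 76292 in the G3BP1 rescue. The rescue lay between the other groups. The log2 fold change of knockout over wild type was -2.73 ± 0.05 in the authors' deposited table, with an adjusted p listed as 0. COL3A1, which forms type III homotrimers in elastic tissues, did the reverse, with 1702 and 1663 normalised reads in wild-type cells, 37044 and 34129 in the knockout and 4597 and 3481 in the rescue. Its log2 fold change was 4.38 ± 0.06 in the authors' deposited table. COL11A1, a minor fibrillar chain that starts cartilage fibrils, had 4007 and 3912 normalised reads in wild-type cells, 112 and 102 in the knockout and 911 and 1123 in the rescue. This was the lowest fold change of any collagen gene, -5.11 ± 0.12 in the authors' deposited table.

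Both main type V chains fell. COL5A1 had 30249 and 28782 normalised reads in wild-type cells, 17699 and 16755 in the knockout and 15882 and 15850 in the rescue. COL5A2 had 1503 and 1458, then 299 and 326, then 984 and 1045. For COL5A2 the rescue libraries were above the knockout and below wild type, while for COL5A1 they were below both. In the authors' deposited table the fold changes of knockout over wild type were -0.78 ± 0.05 for COL5A1 and -2.21 ± 0.12 for COL5A2. COL2A1, the fibrillar collagen of cartilage, had 23.3 and 15.5 normalised reads in wild-type cells and 116 and 100 in the knockout, and the rescue had 22.5 and 24.4. Of the 10 fibrillar genes tested 3 were called higher and 4 lower in the knockout.

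The basement membrane pair COL4A1 and COL4A2, whose chains join in 1 trimer, lie head to head and moved together. COL4A1 had 41264 and 38255 normalised reads in wild-type cells, 29208 and 27297 in the knockout and 31973 and 29830 in the rescue. COL4A2 had 91152 and 83163, then 56653 and 52142, then 64111 and 64278. For both genes all knockout libraries were lowest and all wild-type libraries highest. The fold changes of knockout over wild type were -0.49 ± 0.05 and -0.68 ± 0.05 in the authors' deposited table. Their starts are 126 bases apart in the RefSeq promoter table (GRCh38.p14). The stretch between them is shown because both genes are read outward from it, on the strand of COL4A2, at chr13:110307158-110307283, with CCAAT and also GGGCGG in capitals.
COL4A1 and COL4A2: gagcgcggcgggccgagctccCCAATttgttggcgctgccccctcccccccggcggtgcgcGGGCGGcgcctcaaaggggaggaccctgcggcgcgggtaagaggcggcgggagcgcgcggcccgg
Of its bases 80.2% are G or C, and neither the TATAAA box nor the AP-1 site TGANTCA occurs in it on either strand. The gene counting is not stated to use the strand, so reads from overlapping ends of such pairs could be shared. COL4A4, a chain of kidney basement membrane, had 467 and 506 normalised reads in wild-type cells, 38.7 and 46.6 in the knockout and 113 and 98.7 in the rescue. COL4A5, another such chain, had 985 and 1063, then 467 and 475, then 343 and 397.

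Type VI genes split. COL6A1 had 7538 and 7291 normalised reads in wild-type cells, 32126 and 30530 in the knockout and 21598 and 20895 in the rescue. COL6A2 had 10263 and 9212, then 21463 and 20227, then 14198 and 13925. COL6A3 went the other way, with 21057 and 18065 in wild-type cells, 5817 and 6202 in the knockout and 19662 and 20570 in the rescue. These chains join in the type VI trimer. In the authors' deposited table the fold changes of knockout over wild type were 2.07 ± 0.05 for COL6A1, 1.09 ± 0.06 for COL6A2 and -1.70 ± 0.07 for COL6A3. The ratio of COL6A3 to COL6A1 reads was 2.79 and 2.48 in wild-type libraries, 0.181 and 0.203 in knockout libraries and 0.910 and 0.984 in the rescue. The ratio of COL6A2 to COL6A1 was 1.36 and 1.26 in wild type, 0.668 and 0.663 in the knockout and 0.657 and 0.666 in the rescue. For this ratio the rescue libraries stood with the knockout. The ratio of COL4A2 to COL4A1 varied less, between 1.91 and 2.21 in the 6 libraries. It was 2.21 and 2.17 in wild type, 1.94 and 1.91 in the knockout and 2.01 and 2.15 in the rescue, lowest in the knockout. Such ratios compare libraries, since reads also depend on the length of each transcript.

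Fibril-associated genes and the others that changed most included COL13A1, a transmembrane collagen of cell adhesions, with 1389 and 1224 normalised reads in wild-type cells, 56.4 and 51.2 in the knockout and 696 and 834 in the rescue. Its fold change of knockout over wild type was -4.42 ± 0.18 in the authors' deposited table. COL22A1, found at junctions of muscle and tendon, had 1101 and 1072 in wild-type cells, 4998 and 4900 in the knockout and 1609 and 1445 in the rescue. COL9A3 had 6.09 and 10.4, then 66.0 and 65.2, then 52.4 and 84.6, and here the rescue overlapped the knockout. COL12A1 had 30582 and 29191 in wild-type cells, 41381 and 38624 in the knockout and 22427 and 22186 in the rescue. COL18A1, the source of endostatin, had 761 and 822, then 817 and 725, then 590 and 588, and its fold change of knockout over wild type was -0.04 ± 0.12 in the authors' deposited table. Of 6 fibril-associated genes tested 4 were called higher in the knockout and the other two were not called.

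**Figure D3:**
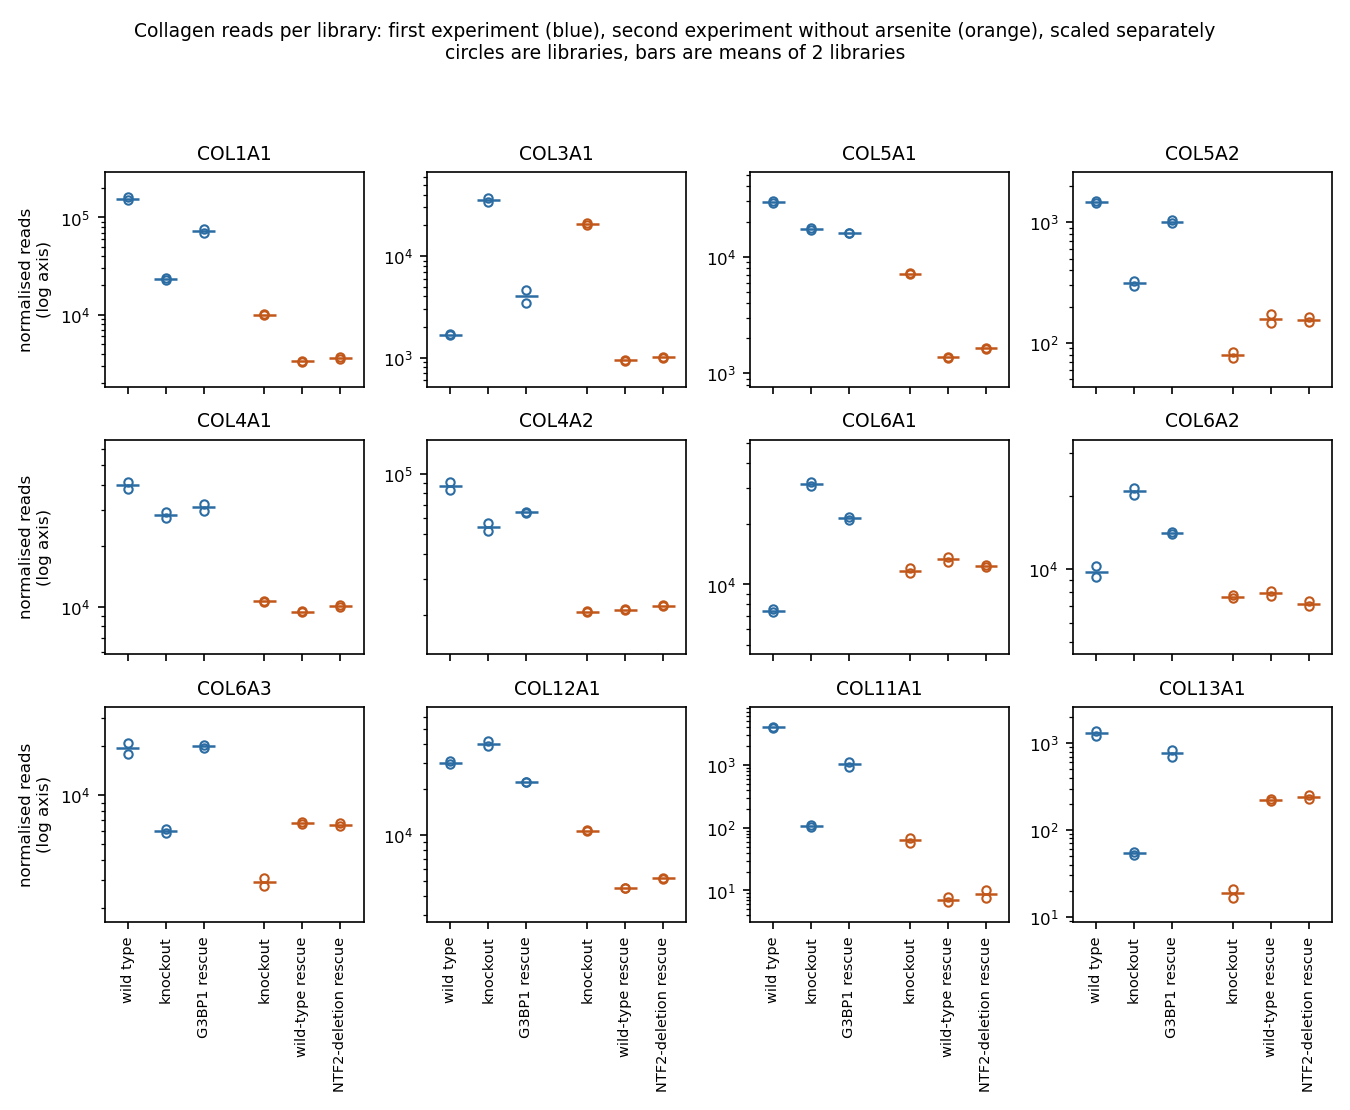
Normalised reads per library (log axis) of 12 collagen genes; circles are libraries, bars are means of 2 libraries, blue is the first experiment and orange the second without arsenite, each scaled separately. COL3A1 is highest in the knockout in both experiments, and COL1A1 is raised by the rescue in the first experiment and lowered in the second.

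Rescue with G3BP1 in the first experiment was set against the knockout. In the authors' test 15 of 34 collagen genes were called higher in the knockout than in the rescue and 9 lower, 70.6% in all, where 41.5% of all 20620 genes were called, 17.8% higher and 23.7% lower. This comparison shares the knockout libraries with the comparison of knockout and wild type. The genes highest in the knockout were COL3A1, COL22A1, COL2A1, COL26A1 and COL8A2, the last a network collagen of the cornea, with fold changes of knockout over rescue from 1.38 to 2.83 in the authors' deposited table. Those lowest in the knockout were COL13A1, COL11A1, COL6A3, COL5A2 and COL1A1, from -3.49 to -1.64 in the authors' deposited table. Wild-type cells and the rescue still differed: 14 of 35 collagen genes were called higher in wild type and 8 lower, where 39.3% of all 20553 genes were called, 16.8% higher and 22.5% lower. COL4A4 at 1.95, COL11A1 at 1.90 and COL1A1 at 1.06 were higher in wild type, and COL6A1 at -1.53 and COL9A3 at -1.51 were lower, in the authors' deposited table. The deposited value of COL9A3 is strongly shrunk, and in limma on the recovered reads it was -2.91 ± 0.35 where COL6A1 was -1.52 ± 0.05. For COL6A3 that comparison gave -0.06 ± 0.06 in the authors' deposited table and was not called.

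In the second experiment, where the transgene was far more abundant, collagen genes were more often lower than higher in rescued cells. With the wild-type rescue 14 of 27 collagen genes were called lower and 8 higher, 81.5% in all, where 51.9% of all 16382 genes were called, 23.0% lower and 28.8% higher. The median log2 fold change was -0.51 over the 27 genes and 0.03 over all genes tested. The split depends on the scaling: limma on the recovered reads called 15 of 29 lower and 10 higher, and 18 and 9 on the CPM scale (reads relative to all gene reads of a library), a fit added after the data were seen. That scale moved the median of all genes from 0.02 to -0.20 and their calls from 31.7% lower and 36.0% higher to 42.2% and 25.9%. All 44 genes together took 0.896% and 0.901% of gene reads in the knockout libraries and 0.511% and 0.520% in those of the wild-type rescue. COL3A1 alone went from 0.154% and 0.157% to 0.00616% and 0.00603%. These shares include the transgene in the total, which took 4.02% and 3.83% there.

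COL3A1 had 20228 and 20866 normalised reads in the knockout, 953 and 930 in the wild-type rescue and 991 and 1015 in the NTF2-deletion rescue. Both rescues lay far below the knockout, by -4.42 ± 0.06 and -4.32 ± 0.06 on the log2 scale in the authors' deposited tables. COL5A1 had 7035 and 7170 in the knockout, 1342 and 1393 in the wild-type rescue and 1656 and 1617 in the NTF2-deletion rescue. COL12A1 had 10771 and 10635, then 4499 and 4498, then 5153 and 5244. COL1A1 had 9882 and 10133, then 3309 and 3365, then 3666 and 3486. Each of these genes was lower in all 4 rescued libraries. COL4A5 was far lower in both rescues, with 243 and 206 in the knockout, 14.1 and 5.60 in the wild-type rescue and 14.2 and 11.8 in the NTF2-deletion rescue. COL26A1, a collagen with an EMI domain, had 342 and 414, then 25 and 40.3, then 38.5 and 39.6, and COL9A2, a type IX chain, had 651 and 592, then 108 and 94, then 117 and 90.9.

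A smaller set was higher in rescued cells. COL13A1 had 16.3 and 21.0 normalised reads in the knockout, 226 and 218 in the wild-type rescue and 250 and 226 in the NTF2-deletion rescue. COL6A3 had 3069 and 2733, then 6821 and 6672, then 6692 and 6483. COL5A2 had 75.1 and 83.9, then 146 and 172, then 148 and 163. COL5A3, a type V chain of restricted tissues, had 115 and 131, then 436 and 423, then 407 and 383, and COL17A1, a transmembrane collagen of hemidesmosomes, had 78.4 and 81.4, then 156 and 218, then 179 and 202. The type IV pair hardly moved: COL4A1 had 10612 and 10653, then 9534 and 9412, then 10229 and 9967, and COL4A2 had 20538 and 20773, then 21136 and 21294, then 21963 and 22398. For COL6A1, with 11366 and 12023 in the knockout and 12930 and 13639 in the wild-type rescue, the fold change of 0.20 ± 0.05 in the authors' deposited table becomes -0.04 on the CPM scale, so its direction depends on the scaling. Over all genes whose base mean was 100 or more the median was 0.18 in the same table. For COL4A2 the NTF2-deletion rescue stood 0.12 ± 0.04 above the knockout in the authors' deposited table, -0.04 once centred on the median of all genes and -0.14 on the CPM scale.

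The 2 rescue effects can be compared across experiments, since they share no library. Of 27 collagen genes tested in both, 19 were called in both, 13 in the same direction and 6 in opposite directions. Over all genes 5684 were called in both, 88.6% in the same direction and 11.4% opposite, against 68.4% and 31.6% of the collagen genes called in both. The 6 opposite genes were COL1A1, COL4A1, COL5A3, COL6A1, COL7A1 and COL11A1, of which COL6A1 changes direction in the second experiment on the CPM scale (-0.04). COL1A1 was higher by 1.64 in the rescue of the first experiment and changed by -1.56 in the second. COL11A1 gave 3.05 and -2.46, COL5A3 gave -0.54 and 1.78, COL7A1 gave -0.81 and 0.47, COL6A1 gave -0.55 and 0.20, and COL4A1 gave 0.14 and -0.15, each as log2 fold change of rescue over knockout in the authors' deposited tables of the first and the second experiment. In a test of the difference itself, added after the data were seen, 19 of 27 collagen genes differed between experiments (13 smaller and 6 larger in the second), where 37.3% of all 16369 genes did, 17.0% smaller and 20.3% larger. Its deposited fold changes were shrunk with prior widths of 0.654 in the first experiment and 1.22 in the second, so part of a difference can be shrinkage. COL3A1 was at -2.83 for rescue over knockout in the first experiment as deposited, and limma gave 3.15 for knockout over rescue. The share of G3BP1 reads rose with the rescue by different amounts in the 2 experiments, as given above. The part of transgene level in the differences between experiments cannot be told apart from that of the experiment.

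**Figure D4:**
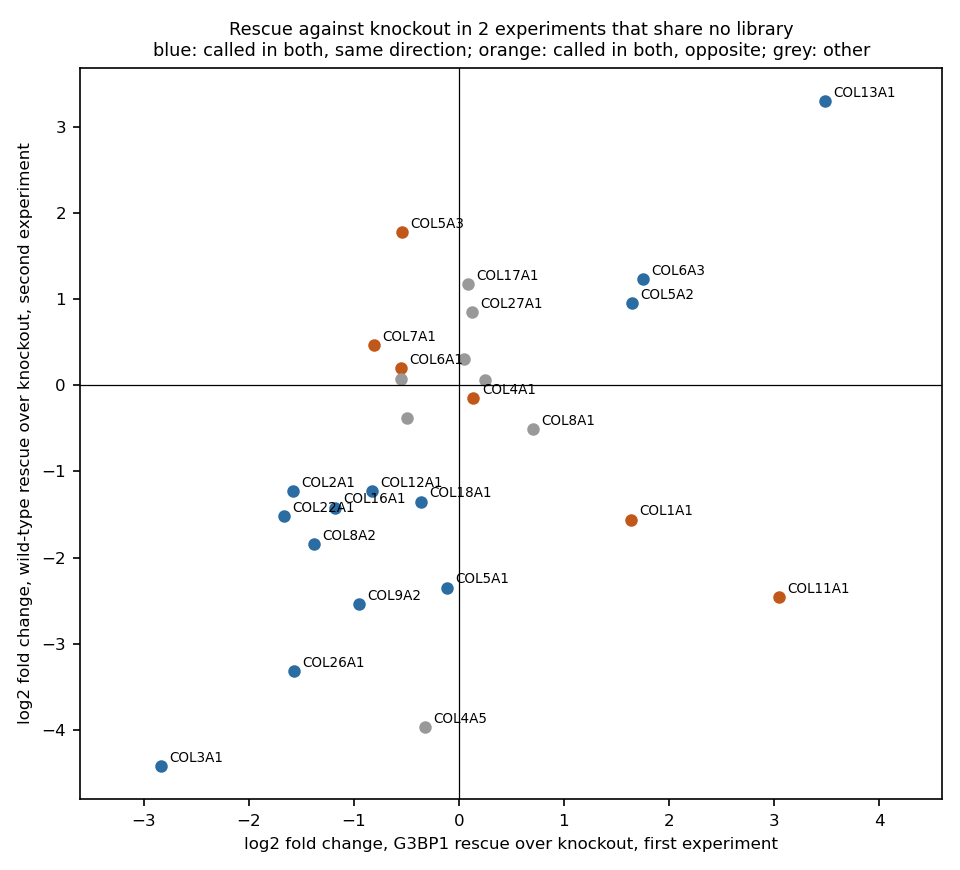
Log2 fold change of 27 collagen genes by rescue over knockout in the first experiment (horizontal) and in the second (vertical), as deposited. COL13A1, COL6A3 and COL5A2 lie in the upper right, COL3A1 in the lower left, and COL1A1 and COL11A1 in the lower right with opposite signs.

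The genes called in 1 direction in both experiments were COL5A2, COL6A3 and COL13A1, higher with rescue, and COL2A1, COL3A1, COL5A1, COL8A2, COL9A2, COL12A1, COL16A1, COL18A1, COL22A1 and COL26A1, lower with rescue. COL16A1, a fibril-associated collagen, had 9222 and 9354 normalised reads in the knockout of the second experiment and 3450 and 3361 in the wild-type rescue. In the first experiment COL16A1 had 26311 and 25986 in the knockout and 11718 and 11134 in the rescue. RefSeq promoter entries (GRCh38.p14) were found for 32 of the 44 genes, and COL1A1, COL1A2, COL2A1, COL3A1, COL5A2, COL6A1, COL6A5, COL8A1, COL9A3, COL14A1, COL20A1 and COL22A1 had none. The 250 bases before the start are shown for 2 genes that were higher with rescue, COL13A1 (chr10:69801656-69801905, plus strand) and COL6A3 (chr2:237414165-237414414, minus strand), and for 2 that were lower, COL12A1 (chr6:75206054-75206303, minus strand) and COL16A1 (chr1:31704018-31704267, minus strand). Capitals mark the 4 motifs searched on both strands: the CCAAT box, the TATAAA box, the GC box GGGCGG and the AP-1 site TGANTCA.
COL13A1: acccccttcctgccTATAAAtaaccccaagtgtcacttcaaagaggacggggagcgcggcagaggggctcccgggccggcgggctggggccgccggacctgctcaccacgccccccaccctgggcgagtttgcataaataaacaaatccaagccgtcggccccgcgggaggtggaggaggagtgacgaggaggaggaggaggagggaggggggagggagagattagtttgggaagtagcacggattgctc
COL6A3: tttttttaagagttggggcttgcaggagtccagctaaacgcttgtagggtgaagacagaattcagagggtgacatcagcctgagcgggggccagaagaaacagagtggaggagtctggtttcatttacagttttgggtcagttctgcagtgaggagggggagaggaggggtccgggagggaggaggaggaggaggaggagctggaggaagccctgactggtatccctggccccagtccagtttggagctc
COL12A1: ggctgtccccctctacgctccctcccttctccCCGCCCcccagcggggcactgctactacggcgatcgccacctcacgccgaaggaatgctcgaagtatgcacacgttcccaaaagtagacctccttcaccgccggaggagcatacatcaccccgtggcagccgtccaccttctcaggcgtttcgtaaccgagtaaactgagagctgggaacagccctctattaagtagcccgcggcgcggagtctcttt
COL16A1: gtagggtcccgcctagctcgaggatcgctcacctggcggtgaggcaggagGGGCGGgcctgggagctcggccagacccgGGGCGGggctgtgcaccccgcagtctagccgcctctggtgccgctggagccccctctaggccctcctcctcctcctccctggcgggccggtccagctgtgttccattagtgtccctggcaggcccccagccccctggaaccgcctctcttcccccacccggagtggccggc
COL13A1 holds TATAAA far from its start, COL12A1 and COL16A1 hold GGGCGG or its reverse, and COL6A3 holds none of the 4 motifs. Over 250 bases before the start GGGCGG occurred in 24 of the 44 promoter entries of the 32 collagen genes (54.5%) and in 42.6% of 35116 entries of all genes. TATAAA occurred in 8 of the 44 (18.2%) and in 10.7% of all entries, CCAAT in 12 (27.3%) and in 32.0%, and TGANTCA in 1 (2.27%) and in 6.57%. Among the 32 genes 8 have several entries, which can overlap. These are matches of letters only. GC content over the same bases had a median of 64.2% in the 44 entries of collagen genes and 58% in all entries.

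NTF2 is the domain through which G3BP1 pairs with itself and binds partners. With it deleted from the transgene, few collagen genes were called different from the wild-type rescue. Against the knockout 14 of 27 collagen genes were called lower and 8 higher with the NTF2-deletion rescue, where 51.3% of all 16485 genes were called, 22.8% lower and 28.5% higher. Limma called 14 of 29 lower and 11 higher there, and 18 and 9 on the CPM scale, where its calls over all genes went from 31.5% lower and 35.7% higher to 43.7% and 24.8%. This comparison and that of the wild-type rescue share the knockout libraries. The combined error in a test between them is therefore too large, and that test is conservative. In the test of the difference between their deposited fold changes 0 of 27 collagen genes passed. Of all 16210 genes 0.0185% passed, 0% larger and 0.0185% smaller in the wild-type rescue. An unadjusted p under 0.05 was found for 2 of the 27 collagen genes and for 0.716% of all genes. A direct contrast of the rescues in limma on the recovered reads, added after the data were seen, called 2 of 29 collagen genes where 0.973% of all genes were called. COL12A1 was lower in the wild-type than in the NTF2-deletion rescue by 0.21 on the log2 scale (95% interval -0.30 to -0.12, limma adjusted p = 0.0117). COL5A1 was lower by 0.26 (95% interval -0.37 to -0.15, limma adjusted p = 0.0113). For both genes all wild-type rescue libraries were below all NTF2-deletion rescue libraries. Neither was called in any of the fits that left out a library.

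For COL3A1 the interval of that difference was -0.19 to 0.01, for COL6A3 it was -0.16 to 0.23 and for COL13A1 it was -0.48 to 0.29 on the log2 scale. With arsenite in both rescues the test of deposited differences again shared the knockout libraries and was conservative. In it 0 of 28 collagen genes passed and 1 had an unadjusted p under 0.05, as did 1.2% of all genes. Over all 16553 genes 0.0785% passed, 0.0483% larger and 0.0302% smaller. In limma COL12A1 was again the gene called, at -0.21 (adjusted p = 0.0106), where 1.03% of all genes were called.

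Arsenite for 2 h lowered a small set of collagen mRNAs by modest amounts. In knockout cells 6 of 27 collagen genes tested were called lower and 0 higher by the authors' DESeq2 test, where 19.4% of all 15497 genes were called, 10.9% lower and 8.56% higher. At an unadjusted p under 0.05, 8 were lower and 0 higher, and limma on the recovered reads called 7 of 29 lower and 1 higher, the low-count COL20A1, where it called 35.1% of all 16654 genes, 18.8% lower and 16.3% higher. In wild-type rescued cells 8 of 22 were lower and 0 higher, where 20.4% of all 13635 genes were called, 12.2% lower and 8.18% higher. There 9 collagen genes were lower and 0 higher at an unadjusted p under 0.05, and limma called 7 of 29 lower and 0 higher, where it called 9.57% of all genes lower and 7.71% higher. In NTF2-deletion rescued cells 6 of 20 were lower and 0 higher, where 8.57% of all 11578 genes were called, 6.14% lower and 2.43% higher. There 10 were lower and 0 higher at an unadjusted p under 0.05, and limma called 8 of 29 lower and 0 higher, where it called 7.69% of all genes lower and 4.71% higher. Shares of all genes at an unadjusted p under 0.05 are not given here for these comparisons. The unadjusted counts are therefore not read as unusual for collagen genes. None of the called changes reached 1 on the log2 scale.

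COL6A1 had 11366 and 12023 normalised reads in untreated knockout cells and 7895 and 7504 with arsenite. In the wild-type rescue COL6A1 went from 12930 and 13639 to 10279 and 10089, and in the NTF2-deletion rescue from 12484 and 12230 to 10276 and 10332. Treated libraries were lower in each background, with fold changes of -0.58 ± 0.06, -0.40 ± 0.04 and -0.26 ± 0.04 in the authors' deposited tables. COL4A1 had 10612 and 10653 in untreated knockout cells and 6987 and 7633 with arsenite, 9534 and 9412 and then 7711 and 7788 in the wild-type rescue, and 10229 and 9967 and then 8557 and 8372 in the NTF2-deletion rescue. COL4A2 fell from 20538 and 20773 to 15474 and 15956 in knockout cells, and COL6A2 from 7547 and 7775 to 5392 and 5047. COL3A1 fell from 20228 and 20866 to 15318 and 15154 in knockout cells.

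COL7A1 stood apart from these. It had 2229 and 2250 normalised reads in untreated knockout cells and 1963 and 1943 with arsenite, a fold change of -0.18 ± 0.08 in the authors' deposited table that was not called. In the wild-type rescue COL7A1 went from 3083 and 3054 to 2047 and 2184, and in the NTF2-deletion rescue from 2892 and 2906 to 1918 and 1951, both -0.55 in the authors' deposited tables. COL1A1, with 9882 and 10133 untreated and 10734 and 10052 treated in knockout cells, had a fold change of 0.07 ± 0.06 in the authors' deposited table. COL6A3 libraries of treated knockout cells differed from each other, at 2144 and 3270.

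**Figure D5:**
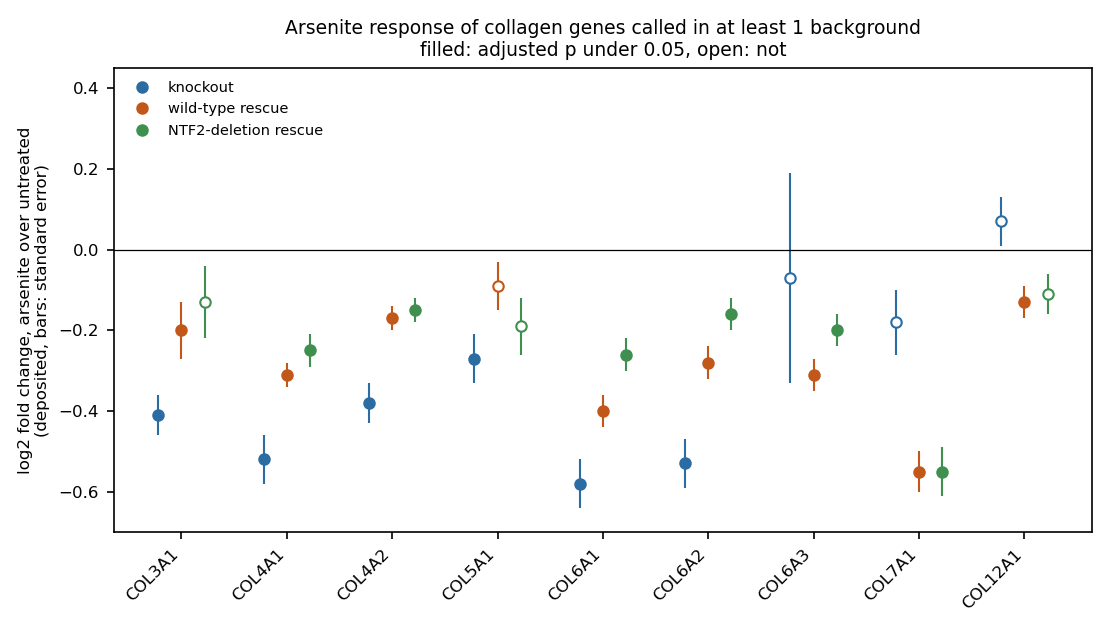
Log2 fold change by arsenite over untreated cells of the 9 collagen genes called in at least 1 background, as deposited, with standard errors as bars and 2 libraries per group; filled points passed an adjusted p under 0.05. All filled points lie below 0, and COL7A1 is the gene whose larger declines in both rescues (-0.55) than in the knockout (-0.18) passed the test of the difference; COL6A3, at -0.31 and -0.20 against -0.07, did not.

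The arsenite response differed between backgrounds for a few collagen genes. Between the wild-type rescue and the knockout 3 of 26 passed the difference test, where 4.51% of all 15648 genes did, 1.82% with a larger and 2.68% with a smaller value in the rescue. COL4A2 and COL6A2 declined less in the rescue, by 0.21 ± 0.06 and 0.25 ± 0.07, and COL7A1 declined more, by -0.37 ± 0.09 (adjusted p = 0.00337). Between the NTF2-deletion rescue and the knockout 5 of 25 passed, where 7.12% of all 15442 genes did, 4.04% larger and 3.08% smaller: COL4A1, COL4A2, COL6A1 and COL6A2 declined less and COL7A1 more. These differences were 0.27, 0.23, 0.33, 0.37 and -0.37. The 2 tests share the knockout libraries. Between the rescues 0 of 27 passed, where 0.328% of all 15865 genes did, 0.101% larger and 0.227% smaller. An unadjusted p under 0.05 was found for 2 of the 27 and for 4.04% of all genes. Limma called 0 of 29 between the rescues, where it called 0.0180% of all genes. In limma on the recovered reads 6 of 29 collagen genes differed between the wild-type rescue and the knockout, where 10.2% of all 16654 genes did, and 9 of 29 between the NTF2-deletion rescue and the knockout, where 14.1% did. The deposited fold changes were shrunk toward 0 more strongly in the rescue tables than in the knockout table, with prior widths of 0.371 and 0.278 against 0.637, and undoing the shrinkage left both counts within 1.5 times.

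Rescued cells with arsenite were deposited only against untreated knockout cells, so these tables mix both changes. There 18 of 30 collagen genes were lower and 7 higher in the wild-type rescue (56.4% of all 17102 genes called, 24.4% lower and 32.0% higher), and 18 of 28 lower and 7 higher in the NTF2-deletion rescue (54.3% of all 16604 genes called, 24.3% lower and 30.0% higher). A contrast with knockout cells that had also received arsenite, made in limma on the recovered reads, called 15 of 29 lower and 11 higher in the wild-type rescue, where 68.2% of all 16654 genes were called, 31.6% lower and 36.6% higher. The same contrast called 14 of 29 lower and 11 higher in the NTF2-deletion rescue, where 68.4% were called, 32.5% lower and 36.0% higher. In the wild-type rescue COL3A1 was at -4.20 ± 0.05 and COL13A1 at 3.76 ± 0.19. COL4A2 and COL6A1 were higher in that rescue by 0.28 ± 0.04 and 0.40 ± 0.04, with limma adjusted p of 3.4e-07 and 2.35e-09. On the CPM scale, in a fit added after the data were seen, COL4A2 was at 0.05 ± 0.04 (limma adjusted p = 0.239) and COL6A1 at 0.18 ± 0.04 (limma adjusted p = 0.000603), so COL4A2 was no longer called. COL7A1 turned from called higher, at 0.11 (limma adjusted p = 0.048), to called lower, at -0.11 (limma adjusted p = 0.0456). COL4A1 went from 0.09, not called, to -0.14 (limma adjusted p = 0.00495), called lower. That scale moved the median of all genes in this contrast from 0.02 to -0.20 on the log2 scale, and the calls became 17 of 29 collagen genes lower and 8 higher, where 42.7% of all genes were lower and 26.9% higher. For the NTF2-deletion rescue they became 16 lower and 8 higher, where 43.7% were lower and 26.1% higher.

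The collagen genes held 7 pairs of neighbours, taken as adjacent protein-coding genes in the RefSeq table. COL3A1 and COL5A2 are neighbours on chromosome 2 and moved apart, at 4.38 and -2.21 in knockout over wild type and at -4.42 and 0.96 in wild-type rescue over knockout in the authors' deposited tables. COL6A1 and COL6A2 on chromosome 21 had 2.07 and 1.09 in the first of these and 0.20 and 0.07 in the second. COL4A1 and COL4A2 on chromosome 13 had -0.49 and -0.68, then -0.15 and 0.06. COL4A5 and COL4A6 on chromosome X had -1.10 and 0.38 in knockout over wild type in the authors' deposited table, the latter not called. The other 3 pairs each had a member without a tested value there.

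Genes that modify, export or bind collagen were set beside these. In knockout against wild type, of 20 enzymes and chaperones of the endoplasmic reticulum 6 were higher and 7 lower, of 11 export genes 4 and 5, of 12 genes of processing and cross-linking 6 and 3, of 9 receptors 3 and 4, and of 25 other matrix glycoproteins 7 and 15, where 22.2% of all genes were higher and 23.7% lower. Among these DDR2, a receptor kinase for fibrillar collagen, was at 3.84, LOX, which cross-links collagen, at -2.32, LOXL1, a relative of LOX, at 2.42 and FN1, fibronectin, at -2.75 in the authors' deposited table. With the wild-type rescue of the second experiment 8 of 12 processing and cross-linking genes were lower and 1 higher, where 23.0% of all genes were lower and 28.8% higher, with TLL1, a procollagen protease, at -5.10 in the authors' deposited table. Of 8 receptors 5 were lower and 1 higher there, and of 23 other matrix glycoproteins 13 were lower and 8 higher. Of 20 endoplasmic reticulum genes 9 were lower and 4 higher, and of 11 export genes 3 were lower and 6 higher. After arsenite 15 of 20 enzymes and chaperones of the endoplasmic reticulum were lower and 0 higher in knockout cells, 15 of 19 and 0 in the wild-type rescue and 10 of 18 and 0 in the NTF2-deletion rescue, with medians of -0.56, -0.40 and -0.25. Over all genes 10.9%, 12.2% and 6.14% were lower in these tables. PPIB was the lowest or among the 2 lowest of them in each, at -1.05, -0.60 and -0.37 in the authors' deposited tables. Other lists also held lower genes in these backgrounds, given in the same order. Of processing and cross-linking genes 7 of 12, 6 of 10 and 1 of 9 were lower. Of receptors 4 of 8, 4 of 7 and 2 of 6 were lower, and of other matrix glycoproteins 10 of 22, 12 of 21 and 8 of 17. In knockout cells 1 receptor and 1 matrix glycoprotein were higher. The difference between the lists was not tested. Of 11 export genes 1 was called higher in knockout cells, 1 lower in the wild-type rescue and 0 in the NTF2-deletion rescue. Over all genes 19.4%, 20.4% and 8.57% were called in either direction in these tables. With so few export genes, no departure from these shares is read from the counts.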

How the data were processed

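The authors deposited 11 DESeq2 comparison tables. The submitters' processing notes name STAR 2.7.0f or 1.5.3 and DESeq2 2.11.40.6; the build and the counting are not given in the sources used here. Per the file headers, base means are deposited as normalised reads (a signal), fold changes with their errors on the log2 scale, Wald statistics as a score, and p-values raw and adjusted. Each table's 4 summary lines were left out; they held 27.7% to 44.4% of the reads listed. Fold changes had been shrunk by a normal prior 0.278 to 2.06 wide. Whole reads per U2OS library were recovered from base means, all rows included; for RIP, members with base means from 10 to 75 had 1 solution each (12 of 12). Recovered libraries carry no replicate numbers and are called a and b only. Since nothing says that libraries came from separate cultures, p-values measure the spread between these libraries, which may be technical. Members with an adjusted p under 0.05 and a base mean of at least 10 were called. Difference tests divided the gap of 2 fold changes by its combined error (normal, two-sided, Benjamini-Hochberg over all genes). limma 3.58.1 (trend, R 4.3.3) ran on log2(normalised reads + 1), and for rescue against knockout in the second experiment also on the CPM scale. Scripts were tested on simulated data. Named genes are 12 set members (COL1A1, COL1A2, COL3A1, COL4A1, COL4A2, COL5A1, COL5A2, COL6A1, COL6A2, COL6A3, COL12A1, COL18A1), the 5 highest and 5 lowest called ones per comparison, and the 2 highest and 2 lowest of other lists; further members, such as COL16A1, were named after their values were seen. Members and lists were chosen with earlier results of these data known. Alternatives were other thresholds, filters, centring, undone shrinkage and left-out libraries.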

Additional observations from a re-analysis of the deposited data

Results flagged for a closer look

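The change with arsenite differed between cell backgrounds for 5 collagen genes, by a test of the difference of deposited log2 fold changes. For the wild-type rescue minus the knockout it was 0.21 for COL4A2, 0.25 for COL6A2 and -0.37 for COL7A1. For the NTF2-deletion rescue minus the knockout it was 0.27 for COL4A1, 0.23 for COL4A2, 0.33 for COL6A1, 0.37 for COL6A2 and -0.37 for COL7A1. Both sets share the knockout libraries.

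The rescue effect differed between the second and the first experiment for 19 collagen genes, by the test added after the data were seen. The second effect minus the first was negative for COL11A1 (-5.51), COL4A5 (-3.66), COL1A1 (-3.20), COL5A1 (-2.24), COL26A1 (-1.75), COL3A1 (-1.59), COL9A2 (-1.59), COL18A1 (-0.99), COL6A3 (-0.51), COL12A1 (-0.40), COL4A1 (-0.29), COL16A1 (-0.25) and COL4A2 (-0.19). It was positive for COL5A3 (2.32), COL7A1 (1.28), COL17A1 (1.09), COL6A1 (0.75), COL27A1 (0.72) and COL6A2 (0.62), all on the log2 scale. The transgene level, the sequencing depth and the strength of the shrinkage also differed between the experiments, and their part was not tested. No group held enough libraries for a test of single outlying libraries.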

How the results depend on the processing

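No paired analysis was possible because the deposited tables are comparisons and the recovered libraries carry no replicate numbers. In the RIP 12 collagen genes were called at a base mean of at least 100, and 0 with Wald statistics scaled by their spread over all genes. As said above, that scaling cannot decide whether the RIP calls hold. The median in knockout over wild type became -0.04 at a base mean of at least 100. The test of arsenite between wild-type rescue and knockout called 1 of 26 genes at an adjusted p under 0.01. It called 5 at a base mean of at least 100, a filter that leaves fewer genes. Shares of all genes at these settings are not given here. Limma called 6 of 29 in that comparison, where it called 10.2% of all genes. For NTF2-deletion rescue and knockout limma called 9 of 29, where it called 14.1%. Between the untreated rescues limma called 2 of 29, where it called 0.973% of all genes. Between the rescues with arsenite it called 1 of 29, where it called 1.03%. In rescue over knockout COL6A1 became -0.04 on the CPM scale with the wild-type transgene, and COL4A2 became -0.04 when centred and -0.14 on the CPM scale with the NTF2-deletion transgene. The cause of these changes was not tested. With all libraries kept, limma called 26 of 33 collagen genes in knockout against wild type, where it called 58.4% of all genes. For knockout against G3BP1 rescue it called 28 of 33 (52.6% of all genes), and for wild type against that rescue 25 of 33 (50.5%). Rescue with arsenite against untreated knockout gave 26 of 29 with either transgene (70.3% of all genes for wild-type, 69.3% for NTF2-deletion). Shares of all genes in fits without a library are not given here.

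With each library left out of the limma fits in turn, the lone library being assumed to vary like the other groups, called genes numbered 24 to 26 in knockout against wild type, 22 to 26 in knockout against G3BP1 rescue, 24 to 26 in wild type against rescue, 22 to 23 in the wild-type rescue and 21 to 23 in the NTF2-deletion rescue. Arsenite gave 7 to 9 in knockout cells, 4 to 6 in the wild-type rescue and 3 to 6 in the NTF2-deletion rescue, the lowest in each rescue without library a of the treated rescue. Rescue with arsenite against knockout gave 23 to 25 and 25 to 26. The difference tests of arsenite gave 3 to 8 for wild-type rescue against knockout, 6 to 9 for NTF2-deletion rescue against knockout and 0 between rescues, and the untreated and treated contrasts of the rescues gave 0.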
